A study of Mus musculus with 6 samples.

Results

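The 10 genes described here encode the E2F transcription factors E2f1, E2f2, E2f3, E2f4, E2f5, E2f6 and E2f8 and the retinoblastoma proteins Rb1, Rbl1 and Rbl2. They were chosen by family name and not by their values: every probe set that the platform annotation pairs with exactly 1 of these symbols was kept. This gave 23 of the 45037 probe sets that are not controls, and 10 of the 18193 genes that had a probe set of their own. A probe set is the group of short oligonucleotides on the array that measures 1 transcript. Gene expression had been measured in ocular lenses of mouse embryos at E19.5, all of mixed C57BL/6 and FVB/N descent, after dissection from the surrounding tissue. The Notch2 mutant group was 3 embryos with a conditional, lens-specific ablation of Notch2, a receptor of the Notch pathway. The wild type group was 3 of their littermates, in which Notch2 was left intact in the lens. The Cre driver and the exons removed are not given in the sources used here. Each array carried RNA from the 2 pooled lenses of 1 embryo, so the 6 arrays came from separate animals.

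E2F factors bind DNA beside genes needed for DNA replication and division. The activating members E2F1, E2F2 and E2F3 switch these genes on. The retinoblastoma proteins, also called pocket proteins, hold E2F factors in check until kinases that work with D-type and E-type cyclins phosphorylate them. E2F4 and E2F5 act mainly together with the pocket proteins as repressors, E2F6 represses without them, and E2F8 is an atypical repressor that is itself made in dividing cells. In the lens, epithelial cells divide while fibre cells leave the cell cycle, an exit that depends on the retinoblastoma protein. The labels' comparison asks which transcripts differ when Notch2 is missing.

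Every value below is on the log2 scale and centred on the median of its probe set over the 6 arrays. It gives a difference between arrays and no level, so neither the abundance of a gene nor whether a probe set was detected can be read from it. For the same reason the tissue label could not be checked against the level of lens markers. Centring also places the middle pair of arrays, ranked by value, at equal distances from 0. Differences are mutant minus wild type, n = 3 per group, with their standard error (SE) and the p-value of limma, a linear model for arrays, adjusted by Benjamini-Hochberg over all 45037 probe sets. A probe set was called at an adjusted p under 0.05. In bulk RNA, fewer cells of a type and less RNA per cell cannot be told apart.

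The targeted gene, Notch2, was read by 2 probe sets. The first, 1451889_at, read -0.37, -0.41 and 0.43 in the wild types against -0.65, 1.39 and 0.37 in the mutants, and the groups overlapped, at 0.49 (SE 0.45, adjusted p = 0.752). The second, 1455556_at, read 0.44, 0.08 and -0.08 against 0.10, -0.56 and -0.36, again with overlap, at -0.42 (SE 0.21, adjusted p = 0.514). The sources do not say whether either lies in the removed part, so neither checks the labels. The arrays also differed in ways that genotype does not account for. Xist, the RNA of the inactive X chromosome, averaged 7.11 in wild type 2 and 6.87 in mutant 3, against -0.69 to 0.04 in the other 4 arrays, so each group held 1 array of the female and 2 of the male pattern. The array maker's 18 hybridization control probe sets, which measure spiked-in RNA, averaged -1.50 to -0.99 in wild type 1, wild type 2 and mutant 1 and 0.99 to 1.48 in wild type 3, mutant 2 and mutant 3. 

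None of the 23 probe sets passed in limma, where 0.469% of all probe sets did, and the smallest adjusted p of a member was 0.191. Without adjustment, 5 had a p under 0.05, against 11.6% of all probe sets. All 5 were higher in mutant lenses, against 6.11% of all probe sets that were higher at this threshold. They belonged to the activator E2f2 (both of its probe sets), the repressor E2f8 and the pocket protein genes Rbl1 and Rbl2. In 4 of the 23 the groups did not overlap, all 4 with mutants higher, against 17.8% of all probe sets in either direction, 8.73% with mutants higher and 9.1% with mutants lower. No member was lower at the unadjusted threshold, where 5.46% of all probe sets were, and E2f1, E2f3, E2f4, E2f5, E2f6 and Rb1 had no probe set past it. The median difference of the 23 was 0.11, between -0.41 and 0.86, and 15 were above 0, while all probe sets had a median of -0.02 with 47.0% above 0. The typical SE of a member, with a median of 0.19, was close to that of all probe sets, also 0.19 at the median.

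**Figure D1:**
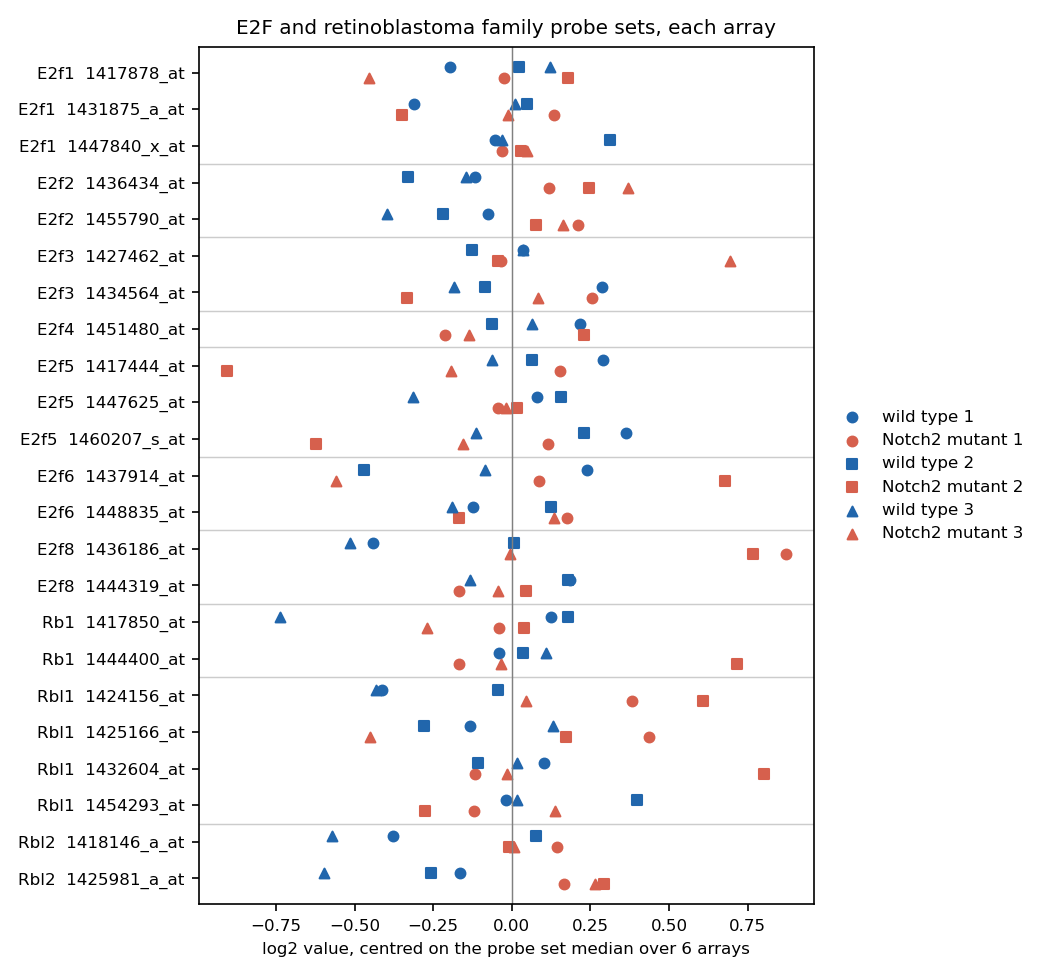
Centred log2 value (horizontal axis) of each of the 23 member probe sets (rows) on each array, with wild type in blue and Notch2 mutant in red. Mutant points lie to the right of all wild type points for both E2f2 rows, Rbl1 1424156_at and Rbl2 1425981_a_at.

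Promoter sequence is shown for the genes with a probe set at an unadjusted p under 0.05, and for E2f3 because its window also held the motif. The genes were chosen after their values were seen. RefSeq windows of 300 bases, 250 before and 50 after an annotated start in GRCm38.p6, were found for 7 of the 10 genes. They were not in the table for E2f4, E2f5 and Rb1. An E2F-type motif, TTTNNCGC, was searched on both strands. It was found in 5.17% of all 32851 windows and in 3 of the 9 member windows, those of Rbl1, E2f2 and E2f3. Rbl1 held 2 matches that do not overlap each other, as did 1 of the E2f2 windows, where 0.326% of all windows held at least 2. No match was found in the windows of E2f1, E2f6, E2f8 or Rbl2, or in the second windows of E2f2 and E2f3, which says only that these letters are not there. Sequences below run 5′ to 3′ on the gene's own strand, and capitals mark a motif match. Rbl1 (chr2:157204535-157204614, minus strand), E2f3 (chr13:29986064-29986143, minus strand), E2f8 (chr7:48881597-48881676, minus strand) and Rbl2 (chr8:91069977-91070056, plus strand) are the 80 bases just before the start, and E2f2 (chr4:136172294-136172323, plus strand) is 30 bases around its downstream match, positions 21 to 50 after the start.
Rbl1: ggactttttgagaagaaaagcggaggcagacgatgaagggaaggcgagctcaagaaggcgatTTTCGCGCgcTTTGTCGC
E2f2: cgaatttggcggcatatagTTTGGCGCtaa
E2f3: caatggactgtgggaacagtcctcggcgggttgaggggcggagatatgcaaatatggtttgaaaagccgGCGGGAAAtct
E2f8: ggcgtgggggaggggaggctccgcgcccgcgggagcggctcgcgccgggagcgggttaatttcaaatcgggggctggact
Rbl2: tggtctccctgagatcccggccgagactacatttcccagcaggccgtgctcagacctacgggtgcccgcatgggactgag
In Rbl1 the matches read TTTCGCGC from 18 to 11 bases before the start and TTTGTCGC over the last 8 bases before it. In E2f3 the match is on the other strand, as TTTCCCGC.

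Among the activating factors, E2f2 had the higher values in mutants. Its probe set 1436434_at read -0.12, -0.33 and -0.15 in the 3 wild types, by replicate number, against 0.12, 0.24 and 0.37 in the mutants. All mutant arrays lay above all wild type arrays, with a difference of 0.44 (SE 0.15, 95% interval 0.10 to 0.79, adjusted p = 0.288). The second, 1455790_at, read -0.08, -0.22 and -0.40 against 0.21, 0.08 and 0.16. The groups again did not overlap, with a difference of 0.38 (SE 0.15, 95% interval 0.03 to 0.73, adjusted p = 0.377). The E2f2 probe sets had the same sign on all 6 arrays, with a root mean square difference of 0.16 between them. Leaving out each array in turn moved them between 0.38 and 0.51 and between 0.30 and 0.46.

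E2f1, the best known activator and itself a gene with E2F-dependent transcription, showed no shared direction. Its probe set 1417878_at read -0.20, 0.02 and 0.12 in wild type against -0.02, 0.18 and -0.46 in mutants, so mutant 3 held the lowest value and mutant 2 the highest. The 3 E2f1 probe sets differed by -0.08 (SE 0.20), 0.0079 (SE 0.18) and -0.06 (SE 0.16), with adjusted p between 0.921 and 0.992. Their 95% intervals reached from -0.52 to 0.42 at most, so a larger rise than 0.42 in any of them lies outside its interval. The sign of each turned when some single array was left out.

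For E2f3, the third activator, 1427462_at read 0.04, -0.13 and 0.04 in wild type and -0.04, -0.05 and 0.69 in mutants. Mutant 3 alone was high, and the difference of 0.22 (SE 0.22, adjusted p = 0.764) became -0.022 without it. The other E2f3 probe set, 1434564_at, differed by -0.0035 (SE 0.20), with mutant 2 at -0.33 and wild type 1 at 0.29.

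The repressors that work through pocket proteins had negative or near-zero differences. E2f4, measured by a single probe set, read 0.22, -0.06 and 0.06 in wild type against -0.21, 0.23 and -0.14 in mutants. Its groups overlapped, at -0.11 (SE 0.17, adjusted p = 0.866). E2f5 had the most negative member value: 1417444_at read 0.29, 0.06 and -0.06 in wild type and 0.15, -0.91 and -0.19 in mutants, a difference of -0.41 (SE 0.26, adjusted p = 0.615). Mutant 2 was far below the other arrays. The difference was -0.12 without it and -0.65 without mutant 1. A second E2f5 probe set, 1460207_s_at, followed the first on all 6 arrays (root mean square difference 0.14) and differed by -0.38 (SE 0.22), with -0.18 without mutant 2 and -0.55 without mutant 1. Both had an unadjusted limma p under 0.05, as lower, without mutant 1 and with array weights (-0.49 and -0.50), where their adjusted p was 0.246 to 0.384. The third, 1447625_at, differed by 0.01 (SE 0.17) and did not follow them. The _s_at suffix marks a probe set that can match more than 1 transcript.

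E2f6, which represses without pocket proteins, varied more between arrays than between genotypes. Its probe set 1437914_at spread from -0.47 to 0.24 in wild type and from -0.56 to 0.68 in mutants, where mutant 3 was the lowest and mutant 2 the highest of all arrays. The difference was 0.17 (SE 0.31, adjusted p = 0.886), and that of 1448835_at was 0.11 (SE 0.17, adjusted p = 0.863).

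E2f8 had the largest difference of all members. On 1436186_at wild types read -0.44, 0.0060 and -0.51, against 0.87, 0.77 and -0.0060 in the mutants. Mutants 1 and 2 were high, wild types 1 and 3 were low, and wild type 2 and mutant 3, the arrays with high Xist, met near 0. The difference was 0.86 (SE 0.25, 95% interval 0.29 to 1.43, adjusted p = 0.209) and lay between 0.70 and 1.14 when single arrays were left out. The other E2f8 probe set, 1444319_at, showed nothing of this, at -0.13 (SE 0.16, adjusted p = 0.820), and the 2 probe sets had a root mean square difference of 0.60, the widest within any member gene. E2f7, the closest relative and partner of E2f8, is outside the 10 genes and is named because of that kinship. Its only probe set read -0.77, -0.05 and -0.60 against 0.37, 0.15 and 0.05, with a difference of 0.66 (SE 0.21, adjusted p = 0.243).

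Of the pocket proteins, Rb1 itself had the smallest differences. Its probe set 1417850_at read 0.13, 0.18 and -0.74 in wild type against -0.04, 0.04 and -0.27 in mutants, at 0.05 (SE 0.25, adjusted p = 0.962). Wild type 3 was the lowest array, and without it the sign turned, to -0.24. The other, 1444400_at, had 1 high array, mutant 2 at 0.72, and a difference of 0.14 (SE 0.23) that became -0.14 without it.

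Rbl1, a pocket protein gene that dividing cells express and that E2F factors are known to regulate, was measured by 4 probe sets that did not move together. The first, 1424156_at, read -0.41, -0.05 and -0.43 in wild types, against 0.38, 0.61 and 0.05 in mutants. The groups did not overlap, although wild type 2 and mutant 3 lay within 0.09 of each other. The difference was 0.64 (SE 0.19, 95% interval 0.20 to 1.08, adjusted p = 0.221), or 0.51 to 0.79 with single arrays left out. The other 3 differed by 0.15, 0.22 and -0.22, with adjusted p between 0.718 and 0.874. In 1432604_at the value of 0.22 came with 1 high array, mutant 2 at 0.80, and it was -0.071 without that array.

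Rbl2, the pocket protein gene tied to resting and differentiated cells, held the smallest p of the family. Its probe set 1425981_a_at read -0.17, -0.26 and -0.60 in wild type and 0.17, 0.29 and 0.26 in mutants. Mutants lay close together (SD 0.07) and above all wild type arrays, with a difference of 0.58 (SE 0.16, 95% interval 0.21 to 0.95, adjusted p = 0.191). Between 0.45 and 0.67 remained when single arrays were left out. The second Rbl2 probe set, 1418146_a_at, read -0.38, 0.08 and -0.57 against 0.14, -0.01 and 0.01. Its groups overlapped through wild type 2, at 0.34 (SE 0.19, adjusted p = 0.567). This was 0.20 without wild type 3 and 0.52 without wild type 2. Over 1 probe set per gene, the genes whose 6 values came nearest to Rbl2 1425981_a_at were Psmd9, Smpdl3a, Dct, Haus3 and Me1, with root mean square differences of 0.05, 0.06, 0.07, 0.07 and 0.08. Psmd9 helps assemble the proteasome, Dct is a pigment enzyme and Haus3 is part of a spindle complex.

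**Figure D2:**
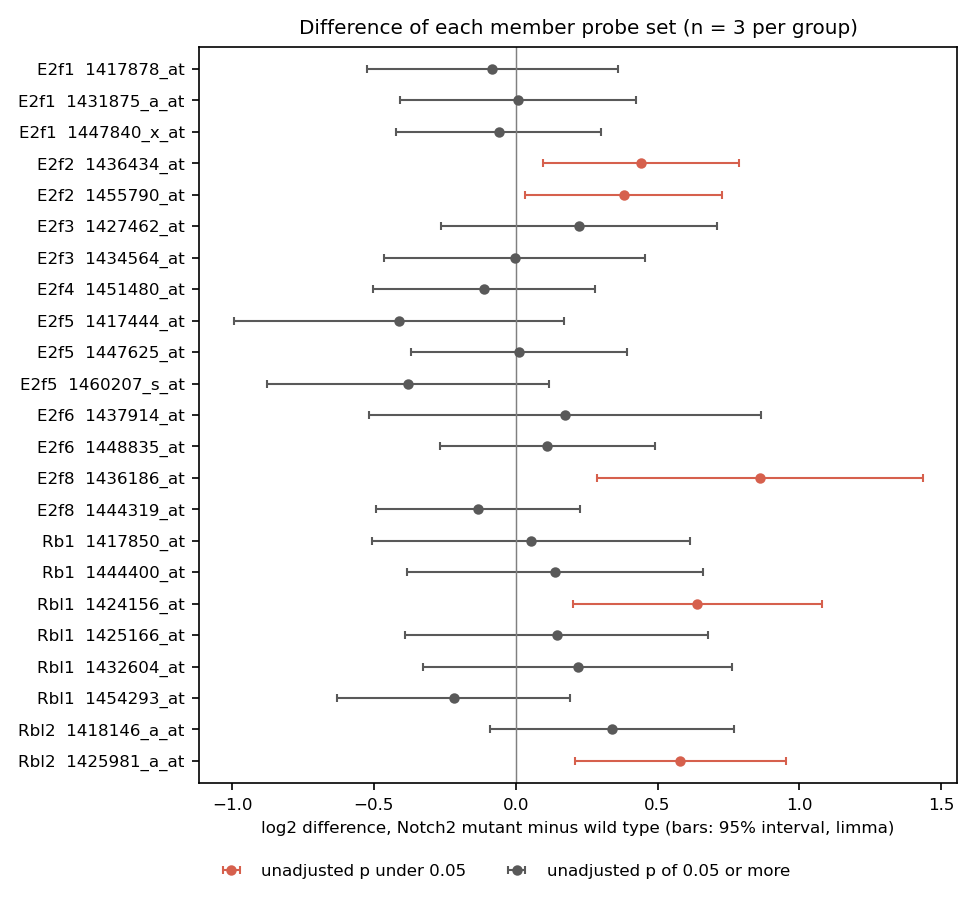
Log2 difference, mutant minus wild type (horizontal axis), of each member probe set (rows), with points for the estimate and bars for limma's 95% interval. The 5 intervals in red, of E2f2, E2f8, Rbl1 and Rbl2, lie above 0 at an unadjusted p under 0.05, and none of the 23 passed after adjustment.

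Probe sets of the same gene disagreed in sign in 5 of the 9 genes with several, namely E2f1, E2f3, E2f5, E2f8 and Rbl1. In E2f1, E2f3 and E2f5 this rests on a value near 0, of 0.0079 (SE 0.18), -0.0035 (SE 0.20) and 0.01 (SE 0.17). The share over all genes with several probe sets is not given here. In the other 4 genes with several probe sets, E2f2, E2f6, Rb1 and Rbl2, all differences were above 0. Since no level is known, a flat probe set cannot be told from one that measured no transcript.

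Within the subsets of arrays, both E2f2 probe sets and Rbl2 1425981_a_at were above 0 in each, as was Rbl1 1424156_at, while E2f8 1436186_at was near 0 between the Xist-high arrays. In the 4 Xist-low arrays, E2f8 1436186_at differed by 1.30, and between the 2 Xist-high arrays, 1 of each genotype, by -0.01. For Rbl1 1424156_at the values were 0.92 and 0.09, and for E2f7 0.95 and 0.09. For Rbl2 1425981_a_at they were 0.61 and 0.52, for E2f2 1436434_at 0.31 and 0.70, and for E2f2 1455790_at 0.38 in both. E2f3 1427462_at, which had no unadjusted limma p under 0.05 over all arrays, was at -0.08 and 0.82. In limma's test of whether the genotype difference depends on the Xist pattern no probe set passed, with 3.68% of all probe sets at an unadjusted p under 0.05. For E2f8 the difference between the patterns was 1.31 (SE 0.37, adjusted p = 0.988), and the Xist-high side rests on 1 array per genotype. In the arrays with low and with high hybridization controls, E2f8 differed by 1.09 and 0.89, Rbl1 by 0.61 and 0.76, Rbl2 by 0.38 and 0.88, E2f2 1436434_at by 0.34 and 0.45 and E2f2 1455790_at by 0.36 and 0.52. All 5 kept their direction within both of these subsets, in each of which 1 genotype had a single array. For both E2f2 probe sets, Rbl1 1424156_at and Rbl2 1425981_a_at the groups did not overlap. No subset by Xist or by hybridization controls could therefore turn their direction, and for them the kept direction is no further check. The 5 were also picked by their p-values in these same arrays.

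**Figure D3:**
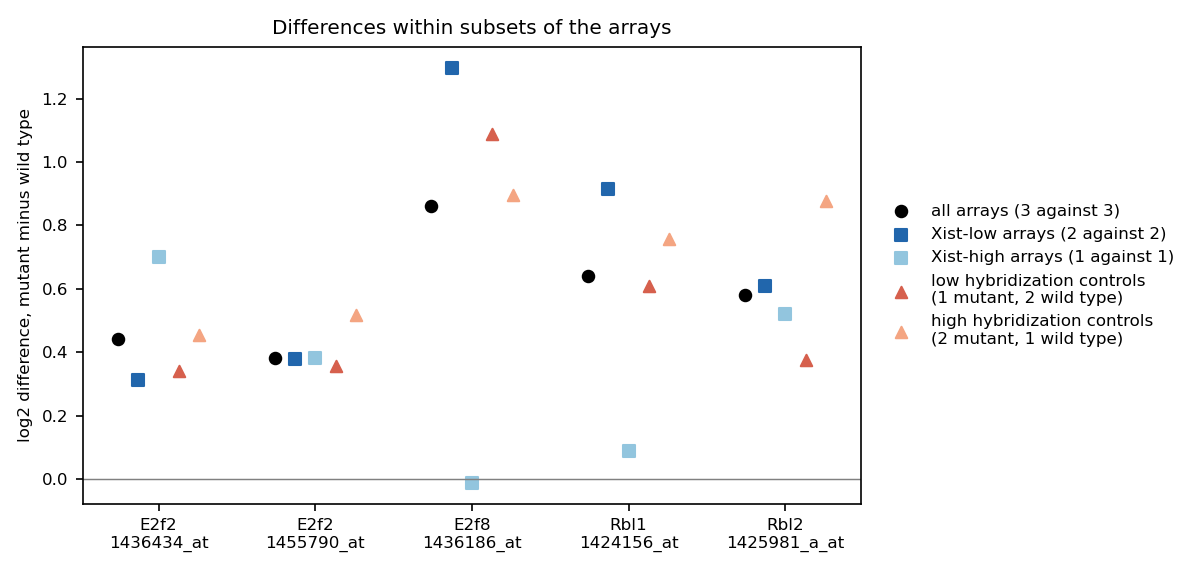
Log2 difference, mutant minus wild type (vertical axis), of the 5 member probe sets with an unadjusted p under 0.05, over all arrays and within arrays grouped by Xist or by hybridization controls. In the Xist-high pair E2f8 is at -0.01 and Rbl1 at 0.09, while the other 3 stay between 0.38 and 0.70.

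The partners and regulators of the family were read from lists of general knowledge, taking for each gene the probe set that varied most over the arrays. On that footing 15.6% of all genes had an unadjusted p under 0.05 and 0.748% passed after adjustment. The 10 members had a median difference of 0.20 and 4 of them an unadjusted p under 0.05, all higher, where 8.22% of all genes were higher and 7.34% lower. Of the 10, 7 were above 0, against 45.9% of all genes, whose median was -0.03.

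The cyclins and kinases that phosphorylate pocket proteins were measured by 8 genes, all with a difference above 0 and none past adjustment. Ccnd1, a D-type cyclin, read -0.73, -0.19 and -1.24 in wild type and 0.66, 1.23 and 0.19 in mutants, without overlap, at 1.41 (SE 0.31, adjusted p = 0.0919). Cdk2, Ccne1 and Cdk4 followed at 0.56, 0.59 and 0.44, with adjusted p of 0.217, 0.276 and 0.305. The list's median was 0.50, with 4 genes at an unadjusted p under 0.05, all higher.

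Of 7 brakes on these kinases, Cdkn1a, the inhibitor p21, rose by 2.70 (SE 0.29, adjusted p = 0.0157), from -1.50, -0.83 and -1.42 to 1.89, 1.62 and 0.83. The other 6 had differences between -0.17 and 0.24 and none passed, so the list's median was 0.02. The 2 genes for the DP proteins, with which E2F factors pair on DNA, differed by 0.14 (Tfdp1, SE 0.15) and 0.07 (Tfdp2, SE 0.28). In the MuvB complex, which joins E2F4 and the pocket proteins on cell cycle genes, and its partner B-Myb, none of 6 genes passed. Lin9 was at 0.55 (SE 0.15, adjusted p = 0.174) and Lin37 at -0.32 (SE 0.18, adjusted p = 0.570), and the median was -0.04.

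The replication and S phase genes known as E2F targets were mostly higher in mutants without passing. Of 29 measured, 27 had a positive difference and 19 an unadjusted p under 0.05, all of them higher. Rrm2, a subunit of ribonucleotide reductase, rose by 1.24 (SE 0.20, adjusted p = 0.0422), from -0.55, -0.38 and -0.89 to 0.63, 0.90 and 0.38, and was the only one to pass. Next by p-value came the helicase subunit genes Mcm3 at 0.85 (adjusted p = 0.0544) and Mcm6 at 1.23 (adjusted p = 0.0587), and the cyclin gene Ccna2 at 0.99 (adjusted p = 0.0680). The list's median was 0.56. The groups did not overlap in 16 of the 29 and in 3 of the 10 family members taken the same way, all with mutants higher, where 19.6% of all genes did not overlap in either direction and 9.48% with mutants higher. The difference between the lists was not tested.

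**Figure D4:**
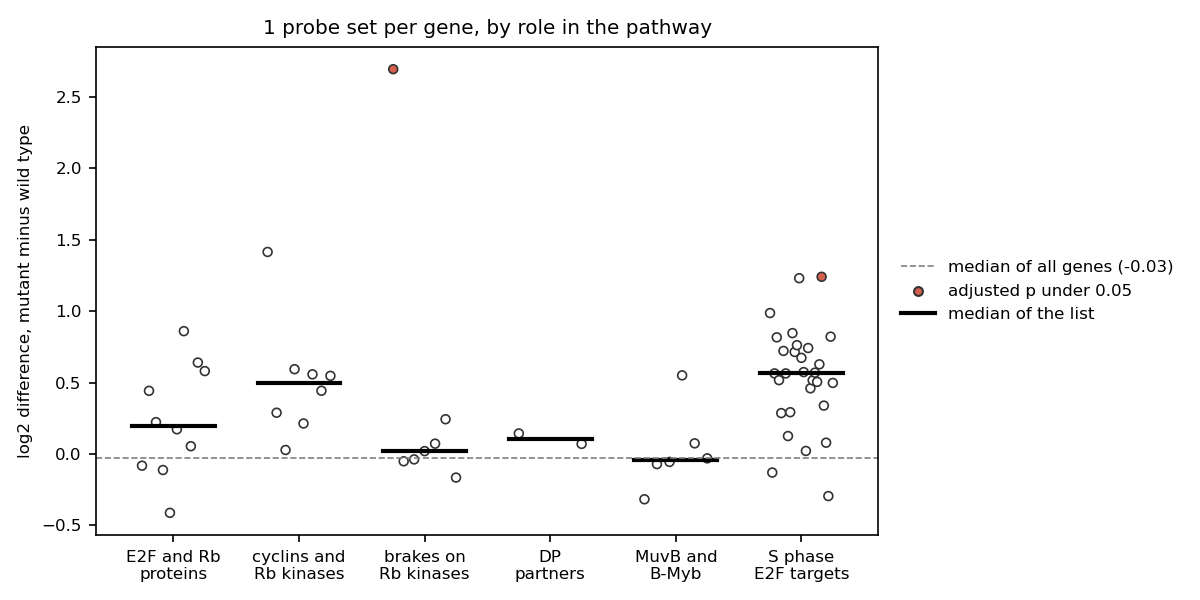
Log2 difference, mutant minus wild type (vertical axis), of each gene by its role, 1 probe set per gene, with list medians as bars and the median of all genes, -0.03, as a dashed line. Filled points passed after adjustment: Cdkn1a at 2.70 among the brakes and Rrm2 at 1.24 among the S phase targets.

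Markers of other cells moved with genotype in the same arrays. Of 13 measured markers of retinal neurons and progenitors, 9 rose and none fell, with a median of 1.94. Their mean per array was -1.29 to -0.55 in wild type and 0.51 to 1.14 in mutants, so the groups did not overlap. Within each group it lay nearest 0 in wild type 2 and in mutant 3. These are the arrays with high Xist, so this order cannot be told apart from the Xist pattern. The means of the S phase targets, of the cyclins and kinases and of the brakes also lay nearest 0 in these arrays. So did E2f8 1436186_at and Rbl1 1424156_at. The other member probe sets with an unadjusted limma p under 0.05 did not. E2f2 1436434_at and Rbl2 1425981_a_at lay nearest 0 in wild type 1 and mutant 1, and E2f2 1455790_at in wild type 1 and mutant 2. For single probe sets, centring itself places the middle pair of arrays evenly about 0. The mean of the brakes includes Cdkn1a at 2.70, while the other brakes differed by -0.17 to 0.24. The macrophage, proliferation and family means shared only part of the order of the retinal mean. The macrophage and proliferation means lay nearest 0 in wild type 2 among wild types but in mutant 1 among mutants. The family mean lay nearest 0 in mutant 3 among mutants but in wild type 1 among wild types. The mean of the 10 family members was -0.04, -0.10 and -0.24 in wild type and 0.15, 0.21 and -0.02 in mutants. The S phase targets averaged -0.39 to -0.10 against 0.14 to 0.35. Of 9 macrophage markers none passed, 7 had an unadjusted p under 0.05, all higher, and their means ranged from -1.44 to 0.03 in wild type and from 0.04 to 0.63 in mutants. General proliferation genes (5 measured) averaged -0.91 to 0.01 against 0.07 to 0.27, with none past adjustment. Lens markers, of which none of 11 passed, averaged 0.09 to 0.21 against -0.21 to -0.10. At an unadjusted p under 0.05, 5 of them were lower and 1, Pax6 at 0.59, was higher. Endothelial, pigment cell, mesenchymal and erythroid lists had medians of 0.02, 0.04, -0.07 and -0.17, and no member of them passed. The part of retinal, macrophage or dividing cells in the values of E2f2, E2f8, Rbl1 and Rbl2 was not tested.

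**Figure D5:**
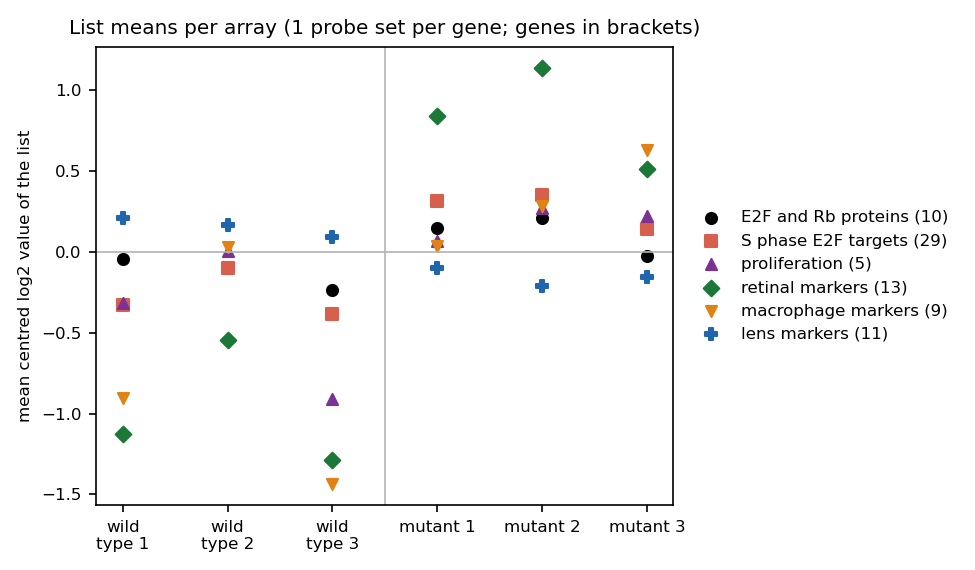
Mean centred log2 value (vertical axis) of each list on each array (horizontal axis), 1 probe set per gene. Retinal markers run from -1.29 in wild type 3 to 1.14 in mutant 2, while the 10 E2F and Rb genes stay between -0.24 and 0.21.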

How the data were processed

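RNA from the lenses of 6 embryos was measured on oligonucleotide arrays, 3 per genotype. The deposited log2 values were made with RMA, per the submitters' processing notes. RMA corrects background, normalises by quantiles and summarises probes. Its version and the base of the logarithm are not given in the sources used here; log2 is RMA's usual output. The median of every probe set over the arrays was 0 to within 5e-07, a centring that no source describes. Precision is limited by the number of arrays.

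Names came from the platform annotation: of 45037 probe sets, 34945 had 1 symbol, 932 several and 9160 none. No probe set with several symbols named a member. The members, lists, tests and the rule for named genes were chosen with earlier results of these data known. The rule took all members, Notch2, list genes that passed, up to 4 of the smallest p per list, and the 5 genes nearest to the leading member. In each list of partners and markers, 1 probe set per gene was used. Some genes of the lists are not reported here.

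Genotypes were compared by limma (version 3.58.1, R 4.3.3) with eBayes and no covariate ( 4 residual and 5.07 prior degrees of freedom), tested on simulated data. Alternatives were repeated quantile normalisation, subtracted array medians, array weights, robust variance, no _x_at and _s_at probe sets, 1 probe set per gene, the replicate number as a block and each array left out. Blocks by hybridization controls and by Xist, and the interaction with Xist, were chosen after seeing the data. Promoters are RefSeq's, build GRCm38.p6. The sources name no build for the arrays.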

Additional observations from a re-analysis of the deposited data

How the results depend on the processing

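No member probe set passed under any of the alternatives. The smallest adjusted p of a member was 0.0883, for E2f8 1436186_at with the hybridization control block. Between 3 and 6 member probe sets had an unadjusted limma p under 0.05. The number over all 45037 probe sets at this threshold moved as well. It was 5214 in the main fit, 3793 without wild type 1 and 8550 with the hybridization control block, where 5, 5 and 6 member probe sets had such a p. The count over all probe sets, 211, was 584 after repeated quantile normalisation, 889 with array weights, 530 with the replicate block, 790 with the hybridization control block, 38 with the Xist block, and 7 to 155 with single arrays left out (8, 155 and 49 without wild type 1, 2 or 3 and 12, 7 and 91 without mutant 1, 2 or 3). Same-numbered arrays did not all deviate together (r = 0.33, -0.14 and 0.26), so the numbers were not taken as pairs in the main fit. For numbers 1 and 3, though not 2, the mutant that deviated most like the wild type had the same number. These correlations do not settle whether the arrays were paired. The replicate block changed no call of a member, with 0 passing and a smallest adjusted p of 0.0970.

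Of the 23 member differences, 12 kept their sign under every alternative. Above 0 were both E2f2 and both Rbl2 probe sets, E2f6 1448835_at, E2f8 1436186_at and Rbl1 1424156_at. Below 0 were E2f4 1451480_at, E2f5 1417444_at, E2f5 1460207_s_at, E2f8 1444319_at and Rbl1 1454293_at. Where the groups did not overlap, leaving out a single array could not turn the sign. The remaining 11 of the 23 differences, all under 0.25 in size, turned at least once. E2f3 1434564_at was 0.0081 with array medians subtracted and 0.11 with the hybridization control block, and 0.16 at most and -0.13 at least with single arrays left out. E2f5 1447625_at was -0.086 with array weights and -0.041 after quantile normalisation, and Rb1 1417850_at -0.18 and -0.066. With single arrays left out, E2f5 1447625_at ranged from -0.13 to 0.10 and Rb1 1417850_at from -0.24 to 0.22. The 3 E2f1 probe sets ranged from -0.22 to 0.10, from -0.11 to 0.15 and from -0.13 to 0.058 in this way. E2f3 1427462_at ranged from -0.022 to 0.35, E2f6 1437914_at from -0.13 to 0.49, Rb1 1444400_at from -0.14 to 0.31, Rbl1 1425166_at from -0.047 to 0.40 and Rbl1 1432604_at from -0.071 to 0.39. The cause of these turns was not tested beyond the array left out. Filters on dim probe sets need levels and were not run.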
